A study of Rattus norvegicus with 25 samples.

Results

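The expression of 7 neuronal genes was followed by RNA sequencing through postnatal development of the rat prefrontal cortex. They were Dlg4 (ENSRNOG00000018526), Camk2a (ENSRNOG00000018712), Syn1 (ENSRNOG00000010365), Snap25 (ENSRNOG00000006037), Gap43 (ENSRNOG00000001528), Map2 (ENSRNOG00000011841) and Mapt (ENSRNOG00000005133). They were picked by Ensembl gene ID to stand for the synaptic scaffold, the synaptic vesicle and release apparatus, the growth cone and the neuronal microtubule skeleton. All 7 IDs were among the 29516 in the deposited table, and all 7 passed the filter on low values with 14128 IDs in total. The pairing of these IDs with symbols came with the choice of genes, not from the table itself.

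The tissue came from wild-type (WT) Wistar rats of 5 ages named by postnatal day: P8 and P14 first, then P21, P35 and, as the oldest, P70. With 5 libraries to an age there were 25, and no group carried a treatment or a mutated allele. The design asked how gene expression differs between these 5 stages, named in the design as medial prefrontal cortex and in the sample labels as prefrontal cortex. Nothing in the labels ties a library to its own animal or gives the animals' sex, so p-values speak only for the spread between these libraries. After the age, each title gives 1 of 15 numbers, which some libraries of an age share, and then a further number. The labels give the meaning of neither. The tests treat all libraries as independent unless a block is named.

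These genes mark stages in the building of a cortical circuit. Growing axons end in a growth cone, a motile tip that steers toward a target, and Gap43 is one of its most abundant proteins. Once contact is made, the axon side collects vesicles and the proteins that fuse them with the membrane, among them Syn1 and Snap25. The receiving side builds a postsynaptic density, in which Dlg4 (PSD-95) anchors receptors and Camk2a responds to calcium. Map2 and Mapt (tau) bind microtubules, Map2 mainly in dendrites and tau mainly in axons.

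Levels are in FPKM, fragment counts scaled to transcript length and to the mapped fragments of the library. This scaling is meant to let genes be set side by side. A gene FPKM can sum several transcripts, so levels compared between genes are approximate. Differences are on the log2(FPKM + 0.5) scale, from 1 limma fit of all 25 libraries over all 14128 IDs. A gene is said to have risen or fallen where its Benjamini-Hochberg adjusted p in that fit was under 0.05. In bulk tissue, fewer cells of a type and less RNA per cell cannot be told apart.

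Library depth relative to the median library ran from 0.386 in P21 replicate 5 to 1.31 in P21 replicate 4, and FPKM totals ran from 472548 to 1649378. The 10 highest IDs of a library held 37.8% to 67% of its total. P14 replicate 2, P14 replicate 5 and P21 replicate 5 correlated least with the other libraries of their age, with mean r of 0.906, 0.919 and 0.931 against 0.947 to 0.972 elsewhere. Results without these 3 libraries are given where a call changes. Whole reads could be recovered behind 2 of the genes: Dlg4 had 2114 to 9573 reads per library and Gap43 had 2084 to 29367. At the lowest of these, counting error alone is 2.17% and 2.19%. For the other 5 genes no read step was found, and their depth is unknown.

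Promoter sequence was at hand in RefSeq (GRCr8) for 4 of the 7 genes, Dlg4, Syn1, Camk2a and Map2. A vesicle gene and a scaffold gene that both rose after P8, Syn1 and Dlg4, are shown. Each window runs from 250 bases before to 50 bases after the start site, 5′ to 3′ on the + strand, at chrX:3725495-3725794 for Syn1 and chr10:55239534-55239833 for Dlg4. Capitals mark matches on either strand to the cAMP response element TGACGTCA, its first 5 bases TGACG, the GC box GGGCGG, the TATA box TATAAA and the CCAAT box CCAAT. A full response element also holds the shorter TGACG on both strands.
Syn1: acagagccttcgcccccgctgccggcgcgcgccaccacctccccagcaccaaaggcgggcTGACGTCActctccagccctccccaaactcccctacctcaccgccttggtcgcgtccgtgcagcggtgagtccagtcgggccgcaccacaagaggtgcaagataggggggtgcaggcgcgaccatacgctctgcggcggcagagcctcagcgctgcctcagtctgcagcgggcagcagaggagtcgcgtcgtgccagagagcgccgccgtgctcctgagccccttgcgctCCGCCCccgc
Dlg4: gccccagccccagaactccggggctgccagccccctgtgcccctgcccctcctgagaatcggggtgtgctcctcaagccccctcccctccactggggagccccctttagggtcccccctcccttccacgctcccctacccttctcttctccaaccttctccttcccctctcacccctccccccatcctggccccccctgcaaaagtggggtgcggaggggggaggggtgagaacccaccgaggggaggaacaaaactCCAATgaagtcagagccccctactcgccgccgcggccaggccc

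The Syn1 window held 1 full response element, starting 190 bases before the start site, and 1 GC box, at position 41 after it. The full element is in 1.83% of 33469 RefSeq promoter windows of the same length, and the GC box in 33.1%. Camk2a, at chr18:56648930-56649229, held 2 separate copies of TGACG, 150 and 92 bases before the start. At least 1 copy is in 21.2% of windows, and the share with 2 or more was not counted. Only a CCAAT box was matched for Dlg4 (37.5% of windows), at position 8 after the start site. None of the 5 motifs was matched for Map2 at chr9:75346440-75346739. No TATA box letters were in any of the 4 windows (14.2% of all windows hold them). GC content was 71% for Syn1, 68.7% for Dlg4, 61.3% for Camk2a and 33.3% for Map2, against a median of 51.7%. CG dinucleotides numbered 31 for Syn1, 9 for Dlg4, 12 for Camk2a and 1 for Map2, against a median of 7. The full response element holds a CG itself, and its share among windows of like CG number was not counted. These matches describe letters only, since binding was not measured.

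Over the 5 ages, 6 of the 7 genes were called by limma's F-test, as were 55.5% of all tested IDs. Map2 was the exception, with an adjusted p of 0.439. From P8 to P70 the 4 synaptic genes rose, and Gap43 and Mapt fell. Rises were called for 19.9% of all tested IDs over that span and falls for 34.6%. The median log2 change was 0.45 over the 7 genes and -0.16 over all tested IDs.

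**Figure D1:**
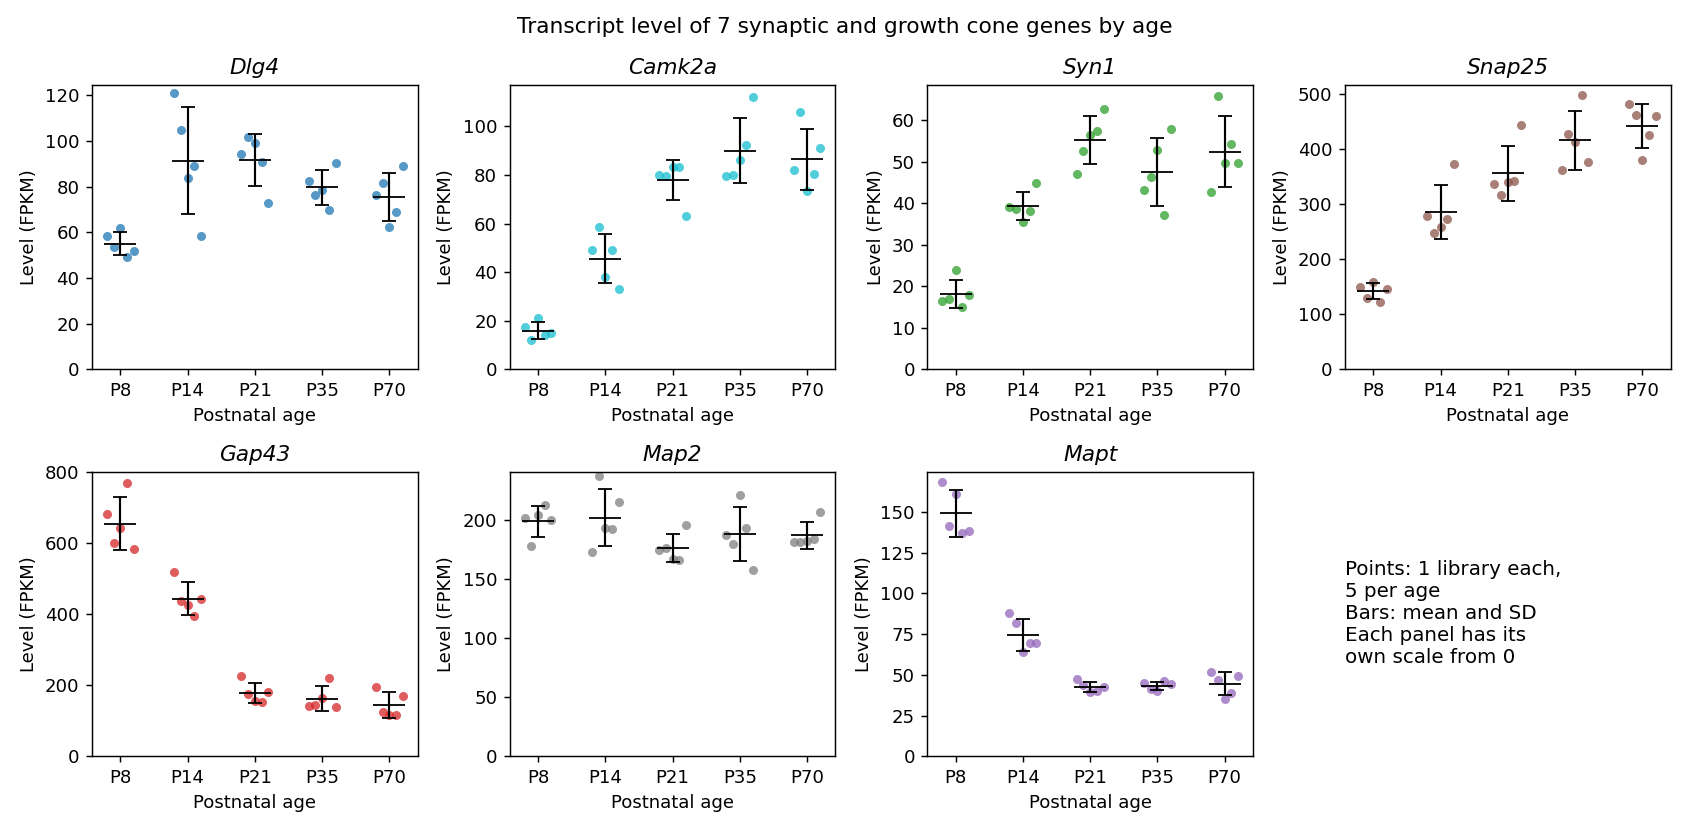
FPKM of each gene by postnatal age, with 1 point per library (5 per age), the mean as a horizontal bar and the SD as the error bar; each panel starts at 0 on its own scale. All libraries of Dlg4, Camk2a, Syn1 and Snap25 lie higher at P21 than at P8, and all those of Gap43 and Mapt lie lower. Map2 lies between 158 and 237 FPKM at every age.

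On the postsynaptic side, Camk2a had the largest rise of the 7 genes. It encodes the alpha subunit of a calcium- and calmodulin-dependent kinase that is abundant in excitatory synapses. The P8 libraries held 17.5, 12, 21.3, 14.1 and 14.9 FPKM, in replicate order, and those of P14 held 49.3, 58.4, 37.9, 49.2 and 33.3. By P21 the values were 79.8, 79.6, 83.1, 83.2 and 63.3 FPKM. Each age lay wholly above the one before, with P21 replicate 5 and P14 replicate 5 as the lowest of their ages. The P35 libraries ran from 79.4 to 112 FPKM and the P70 libraries from 73.3 to 106, and both overlapped P21.

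Mean Camk2a in age order was 16 ± 3.59, 45.6 ± 10, 77.8 ± 8.28, 90 ± 13.5 and 86.5 ± 12.5 FPKM (SD, n = 5 each). It rose 2.86-fold from P8 to P14 (log2 change 1.48 ± 0.15 SE, limma adjusted p = 1.41e-07). A further 1.71-fold rise followed from P14 to P21 (0.78 ± 0.15 SE, limma adjusted p = 0.00101). Neither later step passed, and the whole span came to 5.42-fold (2.42 ± 0.15 SE, limma adjusted p = 5.94e-12). At P8 its level exceeded 74.9% of tested IDs, and at P70 96.4%.

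Dlg4, the scaffold that gathers glutamate receptors at the synapse, rose between P8 and P14 and passed in no later step. P8 libraries held 58.3, 53.7, 62, 49.3 and 52 FPKM. P14 libraries held 121, 105, 83.8, 88.9 and 58.6 FPKM, the widest spread of any age for this gene (CV 25.7%). The lowest of these, P14 replicate 5, lay inside the P8 range, and the other 4 lay above it. P21 libraries held 94.5, 102, 99.2, 90.8 and 72.7 FPKM, again lowest in replicate 5. Values of 70 to 90.5 FPKM followed at P35 and 62.2 to 89 at P70.

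The mean rose 1.66-fold from P8 to P14, from 55.1 ± 5.07 to 91.5 ± 23.5 FPKM (SD, n = 5). The log2 change was 0.69 ± 0.15 SE, with a limma adjusted p of 0.000959. No later step passed. The P21 mean was 91.8 ± 11.5 FPKM and the P70 mean 75.6 ± 10.5 (SD, n = 5), a log2 difference of -0.28 with a 95% interval from -0.58 to 0.03 (limma adjusted p = 0.316). The P70 libraries were still wholly above those of P8, by 0.45 ± 0.15 SE (1.37-fold, limma adjusted p = 0.0128). This was the smallest called change of the span among the 7 genes.

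On the vesicle side, Syn1 encodes synapsin I, which tethers vesicles to one another and to actin in the reserve pool. P8 libraries held 16.5, 17, 23.9, 15.1 and 18 FPKM and P14 libraries 39, 38.7, 35.6, 38.1 and 44.9. P21 libraries held 47, 52.5, 56.5, 57.4 and 62.7 FPKM. The 3 ages did not overlap. At P35 the range was 37.1 to 57.9 FPKM and at P70 42.7 to 65.9, both overlapping P21.

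Syn1 rose 2.17-fold from P8 to P14, from 18.1 ± 3.39 to 39.3 ± 3.44 FPKM (SD, n = 5). The log2 change was 1.11 ± 0.13 SE, with a limma adjusted p of 7.09e-07. It rose 1.41-fold more to 55.2 ± 5.86 FPKM at P21 (0.48 ± 0.13 SE, limma adjusted p = 0.0115). That second call was lost with the first number after the age in the title as a random block (0.48, limma adjusted p = 0.0584). It was also lost with equal FPKM totals (0.17, limma adjusted p = 0.755). Its adjusted p over all alternatives ran from 0.00623 to 0.755. The P35 mean of 47.5 ± 8.11 FPKM and the P70 mean of 52.4 ± 8.58 (SD, n = 5) did not pass against the age before.

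Snap25, a SNARE protein of the plasma membrane that drives vesicle fusion, became the most abundant of the 7 transcripts. It was at 149, 130, 159, 123 and 146 FPKM in the P8 libraries. P14 gave 279, 248, 259, 273 and 373 FPKM, and P21 gave 336, 317, 340, 343 and 444. Replicate 5 was the highest library at both ages, well apart from the other 4. The means were 142 ± 14.6, 286 ± 49.8, 356 ± 50.2, 416 ± 53.1 and 442 ± 40.2 FPKM from P8 to P70 (SD, n = 5), each above the one before.

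One step of Snap25 passed the test: 2.02-fold from P8 to P14 (log2 change 1 ± 0.13 SE, limma adjusted p = 3.62e-06), with no overlap of libraries. From P14 to P21 the change was 0.32 ± 0.13 SE, with an adjusted p of 0.102. That step passed without P14 replicate 5, the highest P14 library (0.42, adjusted p = 0.0257), and after median-of-ratios scaling (0.42, adjusted p = 0.0238). It did not pass without the 3 libraries of lowest correlation, which include replicate 5 of both ages. Its adjusted p ran from 0.0238 to 0.994 over the alternatives. From P21 to P70 the change was 0.32 with a 95% interval from 0.04 to 0.59 (limma adjusted p = 0.18). Without the 3 libraries of lowest correlation it was 0.4 (limma adjusted p = 0.0381, range over its alternatives 0.0381 to 0.998). That alternative was chosen after seeing the data and leaves out P21 replicate 5, the highest P21 library for this gene. Under it 7.13% of all tested IDs were called. Over the whole span the rise was 3.12-fold (1.64 ± 0.13 SE, limma adjusted p = 3.04e-10).

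Gap43 (neuromodulin), a membrane-bound substrate of protein kinase C in growing axons, went the other way. P8 libraries held 682, 600, 642, 768 and 582 FPKM, the highest levels of any of the 7 genes at any age. P14 libraries held 520, 436, 427, 395 and 444 FPKM and P21 libraries 225, 174, 156, 152 and 180. The 3 ages did not overlap, and the drop from P14 to P21 was the larger one. P35 libraries held 142, 145, 164, 221 and 138 FPKM, and P70 libraries 195, 124, 115, 115 and 169. The highest library of each, replicate 4 at P35 and replicate 1 at P70, lay in the upper part of the P21 range.

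From P8 to P14 Gap43 fell to 0.68 of its mean, from 655 ± 74.3 to 444 ± 46.1 FPKM (SD, n = 5). The log2 change was -0.56 ± 0.16 SE, with a limma adjusted p of 0.0118. This call was lost after quantile normalization (-0.19, adjusted p = 0.607), with equal FPKM totals (-0.3, adjusted p = 0.769) and with the block (-0.53, adjusted p = 0.0505). Over all alternatives its adjusted p ran from 0.00228 to 0.769. From P14 to P21 it fell to 0.4 of its mean, reaching 178 ± 29.3 FPKM (-1.33 ± 0.16 SE, limma adjusted p = 4.61e-06), and this held in every alternative run (-1.65 to -1.23). The means were then 162 ± 34.7 at P35 and 144 ± 36.5 at P70, in FPKM (SD, n = 5). The P70 mean was 0.22 of the P8 mean (-2.21 ± 0.16 SE, limma adjusted p = 6.47e-11), and the gene still exceeded 98% of tested IDs.

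The pair of microtubule-binding genes parted. Mapt, which encodes tau, was at 168, 141, 161, 137 and 138 FPKM at P8. It was at 87.7, 82, 63.8, 69.4 and 69.3 FPKM at P14 and at 47.4, 43.5, 39.3, 40 and 42.6 at P21. None of these 3 ages overlapped with another. No later step passed, with libraries at 40.3 to 46.1 FPKM at P35 and 35.4 to 52 at P70.

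Mapt dropped to 0.5 of its P8 mean by P14, from 149 ± 14.4 to 74.4 ± 9.99 FPKM (SD, n = 5). The log2 change was -1 ± 0.11 SE, with a limma adjusted p of 2.03e-07. It dropped again to 42.6 ± 3.21 FPKM at P21 (-0.79 ± 0.11 SE, limma adjusted p = 1.62e-05). The change from P21 to P70 was 0.05, with a 95% interval from -0.17 to 0.27. The P70 mean of 44.5 ± 7.03 FPKM was 0.3 of the P8 mean (-1.74 ± 0.11 SE, limma adjusted p = 2.97e-12). Mapt went from place 3 of the 7 by mean level at P8 to the least abundant from P21 on.

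Map2, the dendritic counterpart, passed in no comparison. In FPKM, its P8 libraries held 202, 178, 204, 213 and 200, its P14 libraries 173, 237, 193, 192 and 215, and its P21 libraries 175, 176, 167, 166 and 196. The P35 libraries held 187, 180, 221, 193 and 158 and the P70 libraries 181, 181, 182, 184 and 207, and every age overlapped every other. The means were 199 ± 13, 202 ± 24.4, 176 ± 11.9, 188 ± 22.8 and 187 ± 11.1 FPKM (SD, n = 5). From P8 to P70 the log2 change was -0.09 with a 95% interval from -0.3 to 0.12 (limma adjusted p = 0.471). The sign of that change turned under other scalings, to 0.04 with equal FPKM totals, 0.06 after median-of-ratios scaling and 0.27 after quantile normalization, none of which passed. Its spread between libraries of an age was 0.13 log2 units, against 0.22 for the median tested ID.

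**Figure D2:**
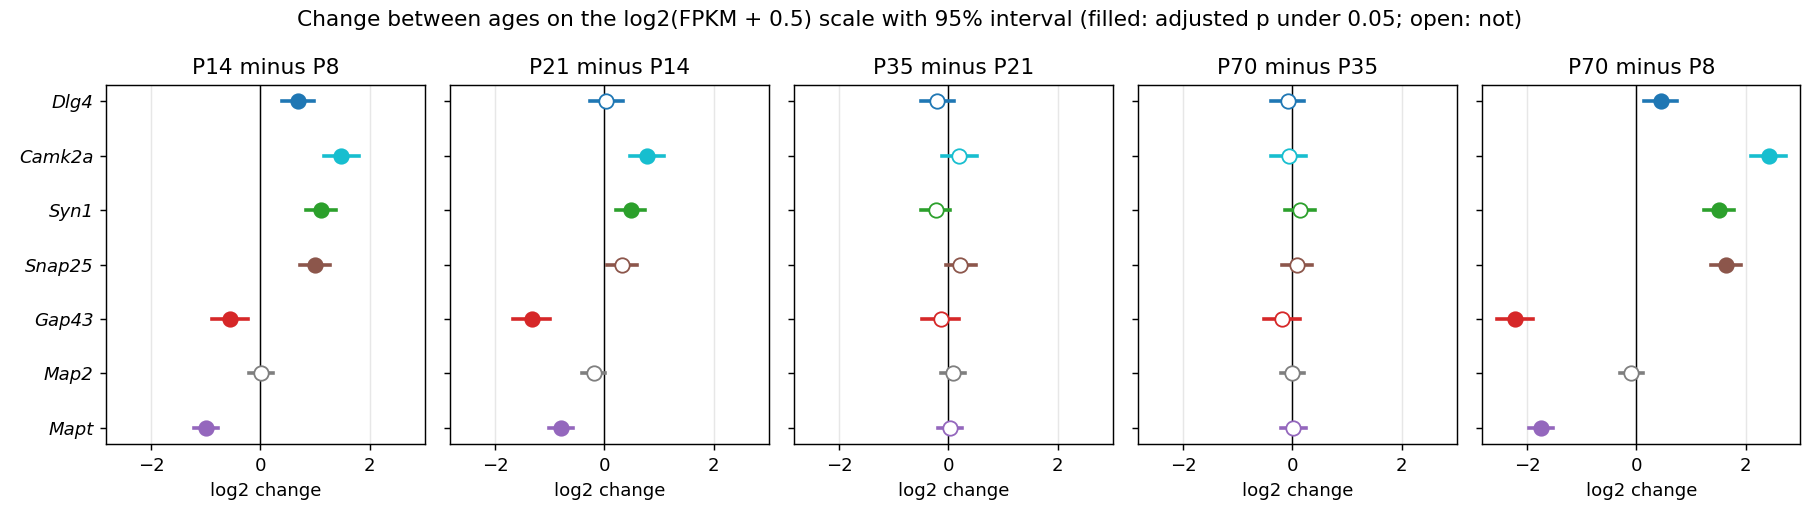
Log2 change of each gene between the ages named above each panel, with its 95% interval from the limma fit; filled points had an adjusted p under 0.05. The filled points stand in the panels P14 minus P8, P21 minus P14 and P70 minus P8, and every point is open in the P35 minus P21 and P70 minus P35 panels.

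Step by step, 4 of the 7 genes rose and 2 fell from P8 to P14, when 13.6% of tested IDs rose and 15.3% fell. From P14 to P21, Camk2a and Syn1 rose and Gap43 and Mapt fell, when 5.17% of tested IDs rose and 12.2% fell. From P21 to P35 the count was 0 of 7 (limma; 0 also at an unadjusted p under 0.05), with 1.62% of tested IDs called. From P35 to P70 it was again 0 of 7 (0 at an unadjusted p under 0.05), with 0.12% called. Between P21 and P70 none of the 7 was called (1, Snap25, at an unadjusted p under 0.05), with 6.12% of tested IDs called.

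With FPKM totals made equal between libraries, 3 genes were called from P8 to P14 (Camk2a, Snap25 and Syn1) and 1 from P14 to P21 (Gap43). Calls over all tested IDs also dropped under it, to 3.57% from 28.9% in the first step and to 1.09% from 17.4% in the next. That scaling shifted the median of all tested IDs by 0.23 and -0.29 log2 units in these steps. Among the lost calls were the first rise of Dlg4 (0.95, adjusted p = 0.165, range over its alternatives 2.8e-05 to 0.165) and the first fall of Mapt (-0.74, adjusted p = 0.253, range 3.42e-09 to 0.253). In the next step the rise of Camk2a (0.46, adjusted p = 0.448, range 0.000156 to 0.448) and the fall of Mapt (-1.11, adjusted p = 0.0845, range 1.34e-06 to 0.0845) were lost. The whole-span rise of Dlg4 was not called under it either (0.58, adjusted p = 0.312, range over its alternatives 0.000625 to 0.312). The whole-span calls of Syn1, Snap25, Camk2a, Gap43 and Mapt held in every alternative run.

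By age means, the share of the change reached at P14 and P21 differed from gene to gene. Of its change between P8 and P70 on the log2 scale, Gap43 had covered 25.2% at P14 and 85.3% at P21. Its P14 share was lower after quantile normalization, at 10.2%, and with equal FPKM totals, at 14.4%. Mapt had covered 57.4% at P14 and 103% at P21, with no called change after that. Syn1 stood at 73.4% and 105%, Camk2a at 61.4% and 93.9%, and Snap25 at 61.2% and 80.6%. Snap25 was at 94.4% at P35, though no step of it after P14 was called. Over the other scalings the P14 shares ran from 46% to 61.3% for Mapt and from 66.1% to 83.5% for Syn1. Those of Camk2a ran from 57.6% to 68.5% and those of Snap25 from 57.8% to 71.8%. For Dlg4 the means gave 154% at P14 and 162% at P21. Over the other scalings its shares ran from 113% to 164% at P14 and from 114% to 143% at P21. Its P14 libraries (58.6 to 121 FPKM) spanned those of P70 (62.2 to 89). P14 was not tested against P70 for Dlg4, and its change from P21 to P70 was not called. These shares come from age means and carry no test.

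The order of the 7 genes by mean FPKM turned over. At P8 it was Gap43, Map2, Mapt, Snap25, Dlg4, Syn1 and Camk2a, from 655 down to 16 FPKM. At P70 it was Snap25, Map2, Gap43, Camk2a, Dlg4, Syn1 and Mapt, from 442 down to 44.5 FPKM. Snap25 took the first place at P21, where its libraries (317 to 444 FPKM) all exceeded those of Gap43 (152 to 225). Map2 kept place 2 or 3 at every age.

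For each gene the ages were put in order of mean FPKM, and neighbours in that order were checked for overlap between libraries. The share of all tested IDs without such overlap was not counted, so the separations are description only. Camk2a ran P35, P70, P21, P14, P8 from high to low, and only P21 against P14 and P14 against P8 did not overlap. Gap43 ran P8, P14, P21, P35, P70, with no overlap in the first 2 neighbouring pairs. Mapt ran P8, P14, P70, P35, P21, likewise. Among neighbours, Syn1 (P21, P70, P35, P14, P8) and Snap25 (P70, P35, P21, P14, P8) separated only at P14 against P8. Dlg4 (P21, P14, P35, P70, P8) did so only at P70 against P8. Ages farther apart in the order could separate too, as P21 did from P14 in Syn1 and from P8 in Dlg4. In Map2 (P14, P8, P35, P70, P21) no neighbours separated.

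A ratio of 2 genes within a library is not moved by a single scaling factor for that library, though quantile normalization can move it. Camk2a over Gap43 was 0.0257, 0.02, 0.0332, 0.0184 and 0.0256 in the P8 libraries and 0.0949, 0.134, 0.0887, 0.124 and 0.075 at P14. At P21 it was 0.354, 0.457, 0.534, 0.546 and 0.352, and at P70 0.421, 0.853, 0.638, 0.696 and 0.54. The first 3 ages stood wholly apart, and P35 (0.416 to 0.816) and P70 overlapped P21. On the log2 scale the mean moved from -5.38 ± 0.34 at P8 to -0.71 ± 0.38 at P70 (SD, n = 5), a 25.5-fold shift in the ratio of the 2 transcripts.

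Ratios of the other synaptic genes to Gap43 share its denominator, which itself did not overlap between P8, P14 and P21, so they are not separate evidence of the steps. For Dlg4 the step from P14 to P21 lay in the denominator, where the log2 difference was 0.04 for Dlg4 (not called) and -1.33 for Gap43. The geometric mean of Snap25 over Gap43 was 14.5-fold higher at P70 than at P8, that of Syn1 over Gap43 13.5-fold and that of Dlg4 over Gap43 6.36-fold. In each, P8, P14 and P21 did not overlap, and P35 overlapped P21. Snap25 was below Gap43 in every P8 and P14 library (ratios of 0.161 to 0.841) and above it in every library from P21 on (1.49 to 3.73). Mapt over Map2 fell from 0.645 to 0.832 at P8, through 0.323 to 0.506 at P14, to 0.218 to 0.271 at P21, and was 0.194 to 0.288 at P70. These ratios are descriptions with no test.

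**Figure D3:**
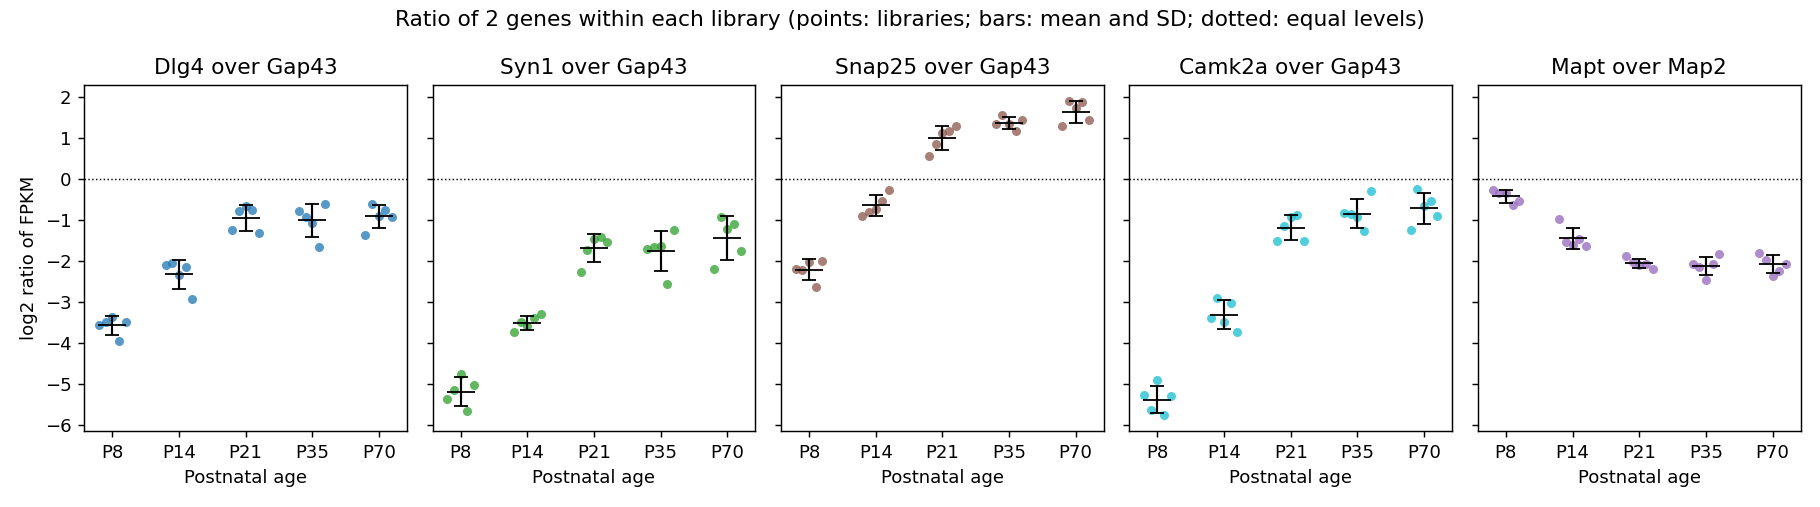
Log2 ratio of FPKM of 2 genes within each library, by age; points are libraries, bars the mean and SD (n = 5), and the dotted line marks equal levels. All 4 ratios to Gap43 climb until P21, Snap25 over Gap43 crosses the line between P14 and P21, and Mapt over Map2 declines from -0.42 to -2.05.

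Some libraries departed from their age in a way that differed between genes. In P14 replicate 5, Dlg4 was 0.6 and Camk2a 0.42 log2 units below the mean of the age (-0.6 and -0.42), while Snap25 was 0.4 and Syn1 0.2 above it. P21 replicate 5 showed the same signs, with Dlg4 at -0.32, Camk2a at -0.29, Snap25 at 0.33 and Syn1 at 0.19. These libraries had depths of 0.706 and 0.386 relative to the median library, and their 10 highest IDs held 59.4% and 67% of the FPKM total. P70 replicate 2, at a depth of 0.447, had Dlg4 at 0.12, Camk2a at 0.3, Syn1 at 0.34 and Snap25 at 0.07. P21 replicate 3, at 0.651, had them at 0.12, 0.1, 0.04 and -0.05. In P21 replicate 2 the 10 highest IDs held 58%, with Dlg4 at 0.16, Camk2a at 0.04, Syn1 at -0.07 and Snap25 at -0.16. In P35 replicate 5 they held 57.8%, with Dlg4 at 0.19, Camk2a at 0.33, Syn1 at 0.3 and Snap25 at -0.13. What part depth or composition had in the deviations of P14 replicate 5 and P21 replicate 5 was not tested. Without P14 replicate 5 the rise of Dlg4 from P8 to P14 was 0.84 in place of 0.69.

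**Figure D4:**
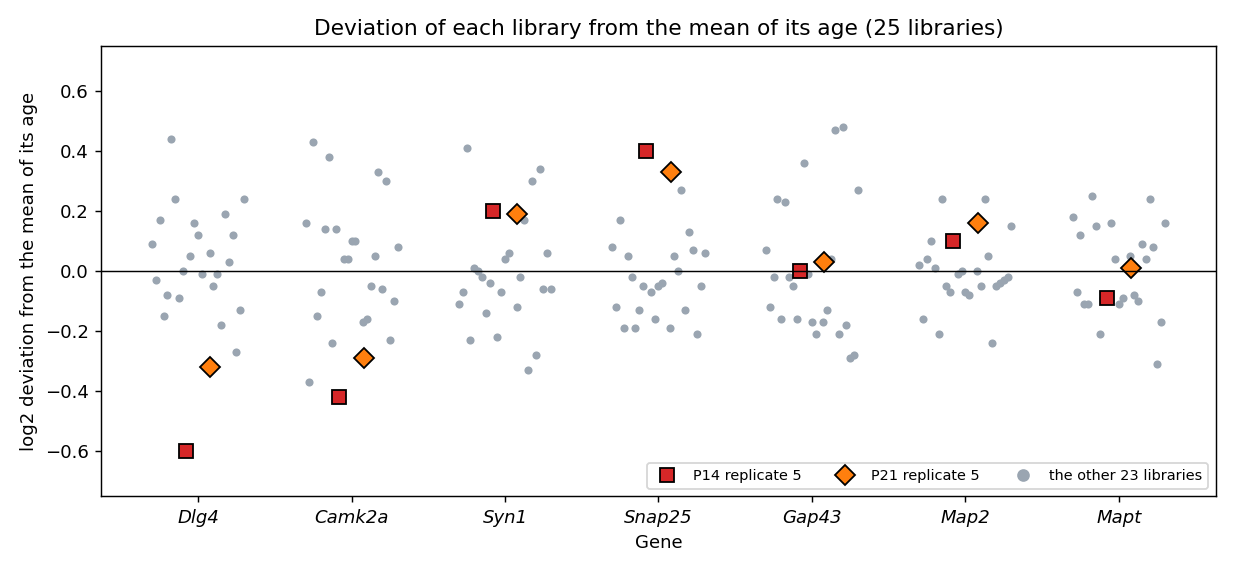
Deviation of every library from the mean of its own age on the log2(FPKM + 0.5) scale, by gene; the square is P14 replicate 5, the diamond P21 replicate 5 and the grey points are the other 23 libraries. Both marked libraries lie low for Dlg4 and Camk2a and high for Syn1 and Snap25.

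Likeness between profiles was measured as the root mean square difference of log2(FPKM + 0.5) over the 25 libraries, each profile less its own mean. Among the 7 genes the closest pair was Syn1 and Snap25, at 0.27 log2 units, followed by Gap43 and Mapt at 0.35. Camk2a and Gap43 were the farthest apart, at 1.82. Beyond the 7, the tested ID closest to Gap43 was ENSRNOG00000000821 at 0.172 log2 units, with means of 772 ± 50.2 FPKM at P8, 223 ± 38 at P21 and 155 ± 27.7 at P70 (SD, n = 5). The next was ENSRNOG00000015020 at 0.214, from 56.3 ± 2.44 FPKM at P8 to 11.2 ± 1.64 at P70 (SD, n = 5). Closest to Camk2a were ENSRNOG00000022921 at 0.2, from 2.2 ± 0.351 FPKM at P8 to 12.8 ± 2.58 at P70 (SD, n = 5), and ENSRNOG00000016244 at 0.203, from 7.26 ± 1.85 to 32.3 ± 3.46 (SD, n = 5). The table gives no symbols for these IDs.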

How the data were processed

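The authors deposited 1 table of FPKM values with 1 column per library. Per the labels' protocols, ribosomal RNA was depleted, single-end reads were sequenced and aligned to rn4 with GSNAP; the submitters' processing notes list BWA 0.6.1, bedtools and Cufflinks. The sources used here do not say which of these made the values, nor the annotation release or strand setting. A gene FPKM can sum several transcripts, so a change of isoform length can move it.

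Columns were matched to samples by title and grouped by labelled age; replicate numbers follow accession order and only name libraries. No columns were identical (0 pairs). limma 3.58.1 (R 4.3.3) was fitted to log2(FPKM + 0.5) for the 14128 IDs with at least 1 FPKM in at least 5 libraries, with 1 mean per age, 20 residual degrees of freedom, moderation with a trend, two-sided contrasts and Benjamini-Hochberg adjustment over all IDs. The fit was tested on simulated data. Depth came from the value of 1 read in sparse IDs; a gene's reads were taken as recovered where all 25 values lay within 0.05 of a whole number, trying up to 20000 reads in the lowest library. Alternatives changed the pseudocount (0.1, 1), the filter, the scaling, the libraries in the fit and a random block.

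The genes, lists and motifs were chosen with earlier results of these data known. The naming rule took the 7 genes in full and, for Camk2a and Gap43, the 2 IDs of most similar profile. Further gene lists and cell type markers were not analysed here, since the table pairs no IDs with symbols.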

Additional observations from a re-analysis of the deposited data

Results flagged for a closer look

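Among 35 groups of 5 libraries (7 genes at 5 ages), 4 held a library farther from the rest than Dixon's 95% limit allows, where chance alone finds about 1 in 20 groups, or 1.75. Snap25 was at 373 FPKM in P14 replicate 5, against 248 to 279 in the other P14 libraries. In P21 replicate 5 the same gene reached 444 FPKM, above the 317 to 343 of its age. Camk2a was at 63.3 FPKM in P21 replicate 5, below the 79.6 to 83.2 of the rest. Map2 was at 207 FPKM in P70 replicate 5, against 181 to 184.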

How the results depend on the processing

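Followed over 1470 alternative values, 42 member changes kept their direction and their side of the threshold in 1421. The 10 lost and 3 gained calls stand in the report, and the 36 changes of sign, or to 0 on rounding, all concerned changes that had not been called. With equal FPKM totals, 3 genes were called in the first step (P14 against P8) and 1 in the next (3.57% and 1.09% of all tested IDs), and without the 3 libraries of lowest correlation, an alternative chosen after seeing the data, 1 (Snap25) was called from P21 to P70 (7.13% of all tested IDs). Equal totals turned Dlg4 (-0.29) and Snap25 (0) from P14 to P21, Dlg4 (0.03), Camk2a (0.06) and Map2 (0.11) from P35 to P70, Map2 (0.04) from P8 to P70 and Syn1 (0.11) from P21 to P70. Quantile normalization turned Mapt (0) from P21 to P35, Dlg4 (0), Camk2a (0.04) and Map2 (0.1) from P35 to P70, and Map2 (0.27) from P8 to P70. Median-of-ratios scaling turned Map2 from P35 to P70 (0.01) and from P8 to P70 (0.06). Without the 3 libraries Map2 from P8 to P14 was -0.1 and Dlg4 from P14 to P21 was 0. The cause was not tested.

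The replicate block used the first number after the age in the title, which repeats within ages but at no 2 ages (0 of 15 numbers). The numbers thus pair no libraries between ages. The consensus correlation of libraries sharing a number was 0.33. The main fit treated all libraries as independent, so its SE and adjusted p make no allowance for this. With the block, 2971 of all tested IDs were called from P8 to P14, against 4090 in the main fit. From P14 to P21 it was 1411 against 2458, and from P21 to P70 448 against 864. The block also turned the signs of Map2 from P8 to P14 (0) and from P35 to P70 (0.02), and the 2 calls named in the report were lost.

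Leaving out 1 library at a time gave -0.05 to 0.07 for Map2 from P8 to P14, -0.11 to 0.15 for Dlg4 from P14 to P21 and 0 to 0.07 for Mapt from P21 to P35. From P35 to P70 it gave -0.13 to 0.03 for Camk2a, -0.06 to 0.06 for Map2 and -0.04 to 0.1 for Mapt, and -0.01 to 0.13 for Mapt from P21 to P70. Scaling moved the median of all tested IDs from P8 to P70 by 0.11 (equal totals) and 0.14 (median of ratios, quantile). Depth is known for Dlg4 and Gap43 only, so counting error of the other 5 genes cannot be given.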

Other observations

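Apart from age, the genes deviated together to different degrees within ages. Dlg4 and Mapt lay on the same side of their age means in 22 of 25 libraries, Dlg4 and Camk2a in 20, and Camk2a and Mapt in 19. Snap25 shared its side with Gap43 and with Map2 in 18 libraries each. Values of a library share its RNA, depth and composition, so these counts carry no test. The 2 highest Gap43 deviations, 0.48 in P70 replicate 1 and 0.47 in P35 replicate 4, came with Syn1 at -0.28 and -0.33 in the same libraries. Over all 25 libraries, Syn1 and Gap43 lay on the same side in 11 and on opposite sides in 14.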
